A study of Mus musculus with 6 samples.

Results

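The genes described here are 36 subunits, regulators and targets of the transcription factor NF-kB in MC/9 cells, a mouse mast cell line. They were taken from the deposited count table by a list of symbols, and all 36 were found among its 49568 genes. Of these, 32 had enough counts to be tested, among 16696 genes tested in all. The members sort by role into 7 groups: the NF-kB subunits, their inhibitors with the nuclear IkB proteins, the IKK complex with its kinase NIK, TNF receptors with their adaptors, feedback regulators, survival and stress targets, and surface and other targets.

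RNA was sequenced from 6 libraries, 3 labelled as untreated controls and 3 labelled as treated with rPTH at 10 nM for 24 h. The labels do not spell out rPTH. Osteoblasts of the mouse line 7F2 had been seeded a day before the mast cells were added, and the mast cells were collected after the treatment. The design text gives no separate account of the controls, so whether their mast cells also met osteoblasts is not certain, and their treatment protocol repeats that of the treated libraries although they are labelled untreated. Separate cultures are not named for the replicates. P-values thus measure only the spread between these libraries, which may be technical.

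NF-kB is a family of dimeric transcription factors held in the cytoplasm of resting cells by IkB proteins. Signals from TNF, toll-like or antigen receptors activate the IKK kinase complex, IkB is marked for destruction, and the dimers enter the nucleus and switch on inflammatory, survival and adhesion genes. Among these targets are the inhibitors themselves, Nfkbia and Tnfaip3, which close the loop. In mast cells the pathway is known for driving cytokine transcription after IgE receptor crosslinking.

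NF-kB dimers bind a short DNA element called the kB site, and promoters were read to show which members carry a match close to their start. RefSeq promoter windows on GRCm38.p6, from 250 bases before to 50 after the start site, were given for 31 of the 36 members, and Nfkb1, Relb, Nfkbiz, Ikbkb and Cd83 had none in the table used. On both strands, the kB consensus matched in 10 of the 31 (32.3%), against 1388 of 27025 genes (5.14%). The looser form GGGNNNNNCC, which contains every match of the consensus, was found in 24 of the 31 (77.4%) and in 14463 genes (53.5%). A gene counted if any of its windows matched. The members were listed as NF-kB genes, known targets among them, so their larger share is not an independent result. A match is a description of the letters and not a measured binding site. The stretches below come from before the start site, on the strand of the gene, and show the inhibitors Nfkbia and Nfkbie, the feedback genes Tnip1 and Cyld, the subunit Rel and Ier3, the member with the highest mean level. The kB matches are in capitals.
Nfkbia, minus strand, chr12:55492648-55492701: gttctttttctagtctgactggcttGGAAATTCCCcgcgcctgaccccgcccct
Nfkbie, plus strand, chr17:45555569-45555628: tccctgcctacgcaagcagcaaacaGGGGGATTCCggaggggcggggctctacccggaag
Tnip1, minus strand, chr11:54962962-54963023: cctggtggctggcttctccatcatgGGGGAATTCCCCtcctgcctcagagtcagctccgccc
Cyld, plus strand, chr8:88696848-88696907: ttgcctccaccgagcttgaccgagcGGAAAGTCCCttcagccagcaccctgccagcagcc
Rel, minus strand, chr11:23771026-23771086: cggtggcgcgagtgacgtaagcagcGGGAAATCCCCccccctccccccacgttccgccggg
Ier3, plus strand, chr17:35821596-35821655: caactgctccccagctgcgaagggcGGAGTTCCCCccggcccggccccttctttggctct
In Nfkbia the match begins 29 bases before the start site, in Ier3 92 and in Cyld 155. Tnfaip3 also had matches, beginning 125 and 12 bases before its start site, but that stretch runs into annotated exon and is not printed. Runs of capitals longer than 10 bases, in Tnip1 and Rel, are overlapping matches.

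Counts were 0 in all 6 libraries for 4 members: Cd83, a surface glycoprotein of activated immune cells, and the 3 copies of the survival gene Bcl2a1, named Bcl2a1a, Bcl2a1b and Bcl2a1d. A count of 0 allows up to 3 counts per library, which is 0.0893 to 0.135 CPM (counts per 1000000 counts of the library), and covers counting error only. The Bcl2a1 copies lie on chromosome 9 at 88956900 to 88962419 (Bcl2a1a), 89199209 to 89207827 (Bcl2a1b) and 88723285 to 88731914 (Bcl2a1d) in GENCODE M21 on GRCm38. Their coding sequences, read from GENCODE M21 transcripts, are 516 bases long and differ at 7 bases between Bcl2a1a and Bcl2a1d, 6 between Bcl2a1b and Bcl2a1d, and 11 between Bcl2a1a and Bcl2a1b. The first 90 coding bases hold 6 of the 12 positions at which any of the copies differ, shown in capitals.
Bcl2a1a: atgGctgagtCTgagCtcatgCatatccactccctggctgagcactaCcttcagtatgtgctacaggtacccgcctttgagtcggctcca
Bcl2a1b: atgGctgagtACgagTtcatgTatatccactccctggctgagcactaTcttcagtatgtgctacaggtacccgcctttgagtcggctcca
Bcl2a1d: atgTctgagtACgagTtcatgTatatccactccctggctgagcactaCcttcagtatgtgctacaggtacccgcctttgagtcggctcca
Of all stretches of 50 bases in their transcripts, 69.0% (Bcl2a1a), 79.2% (Bcl2a1b) and 79.5% (Bcl2a1d) also occur in another gene, so the counting may have dropped or split their reads and their zeros are uncertain. Cd83, on chromosome 13 at 43784775 to 43803132, shares 0 of 2428 such stretches.

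The other 32 members ranged from 1.01 CPM for the adaptor Traf1 to 248 CPM for the stress gene Ier3 (mean of the 6 libraries, scaled by TMM factors, as are all CPM values of members below). At least 10 CPM was reached by 27 of them. Genes were compared with each other only per kilobase of exon. On that scale Ier3 was highest at 219 CPM per kilobase. Plek, a substrate of protein kinase C in blood cells, followed at 29.3, then the subunit Rela at 26.2, the TNF receptor Tnfrsf1a at 19.3 and the IKK subunit Chuk at 14.3 CPM per kilobase. The inhibitor with the highest level was Nfkbib at 12.7, above Nfkbia at 9.94 CPM per kilobase, and the highest feedback gene was Tnip1 at 11.6. Among the subunits, Nfkb2 had 14.1, Rel 2.35 and Relb 2.28 CPM per kilobase. The place of Nfkb1 depended on the length used: it had 9.19 CPM per kilobase of all annotated exons and 26.7 per kilobase of its longest transcript. The same member led each of the 7 role groups with either length.

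Total counts ran from 22282095 to 24993606 in controls and from 30623648 to 33577977 with rPTH, so every rPTH library was deeper. Marker CPM in this paragraph is by library total. Of the mast cell markers, Fcer1a was at 1137 to 1715 and Cpa3 at 1645 to 2195 CPM. The connective tissue protease Mcpt4 was at 0.00 to 0.16 CPM and Mrgprb1 at 0.00 to 0.08. All 16 mast cell markers summed to 6768 CPM in rPTH 1 and to 8142 to 8938 CPM in the other libraries. Of the 14 tested, 5 had a log2 fold change above 0 and 9 below, against 6930 and 9766 of all tested genes, and none passed. The libraries also held osteoblast and stromal transcripts: all 40 markers had a count in some library, and their sum was 2572 to 3009 CPM in controls and 3920 to 6007 CPM with rPTH. Of the late osteoblast markers, Bglap was at 0.04 to 0.22 and Ibsp at 0.00 to 0.04 CPM. The 13 macrophage markers summed to 35.5 to 45.7 CPM. In such bulk RNA, a change in the share of a cell type and a change in RNA per cell cannot be told apart. A principal component analysis set control 1 against the rest (59.0% of the variance) and then control 3 (29.1%).

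Control 1 was the highest of the 6 libraries for 12 members and the lowest for 13, so that 25 of 32 (78.1%) had an extreme there, against 72.5% of all tested genes. The c-Rel gene Rel had 8.06 CPM in control 1 against 20.3 and 20.5 in control 2 and 3. The death receptor kinase Ripk1 had 28.7 against 59.0 and 57.3 CPM, and the caspase regulator Cflar 29.8 against 59.7 and 57.9. Control 1 was high instead for Relb (14.5 against 7.55 and 6.70 CPM), for Bcl3 (8.21 against 4.14 and 3.63) and for Sod2 (196 against 96.8 and 106). The subunits Rela and Rel thus lay on opposite sides in this library.

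**Figure D1:**
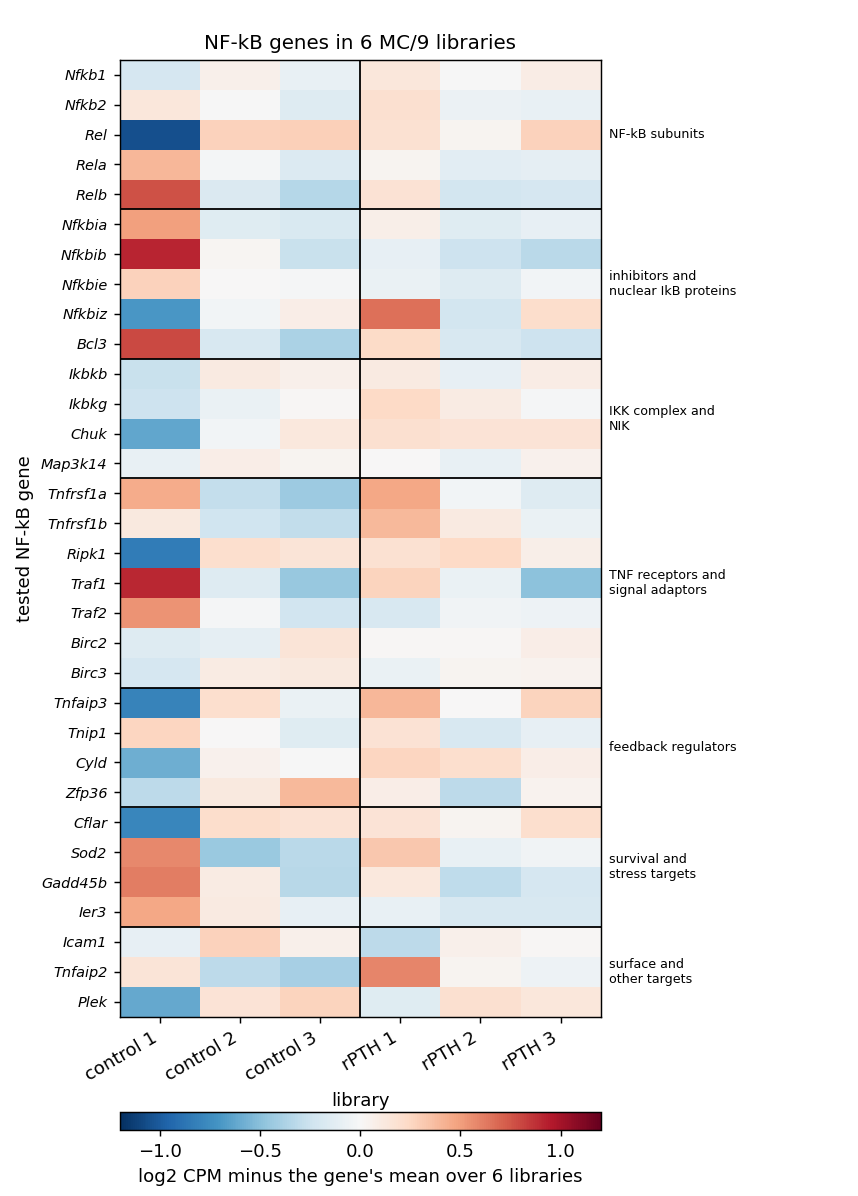
Each row is a tested NF-kB gene and each column a library; colour gives log2 CPM minus the gene's mean over the 6 libraries, red above and blue below that mean, and lines part the role groups and the treatments. Control 1 holds most of the deep colour, blue for Rel, Ripk1 and Cflar and red for Nfkbib, Relb and Traf1.

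The side on which a member lay in control 1 went with its exon length and base composition. Of the 16 shorter members (1.13 to 4.58 kb of exon), 12 were higher in control 1 than in the mean of control 2 and 3, with a median log2 difference of 0.42. Of the 16 longer ones (4.98 to 19.1 kb), 4 were higher, with a median of -0.33. Across the 32 members the log2 difference had a Pearson correlation of -0.51 with log2 exon length and 0.66 with GC content. Across 12292 tested protein-coding genes these values were -0.58 and 0.31, and across all 16203 tested genes with a known length -0.26 and 0.31. With the log2 length of the longest transcript in place of exon length, the Pearson correlation across members was -0.60. All points share the same 3 libraries and genes are not independent replicates, so these values are descriptions. Control 1 also had ribosomal protein genes at 100183 CPM by library total, against 46102 to 53915 CPM in the other libraries, and processed pseudogenes at 123074 against 70978 to 98446 CPM. The part of this in the members' values was not tested.

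**Figure D2:**
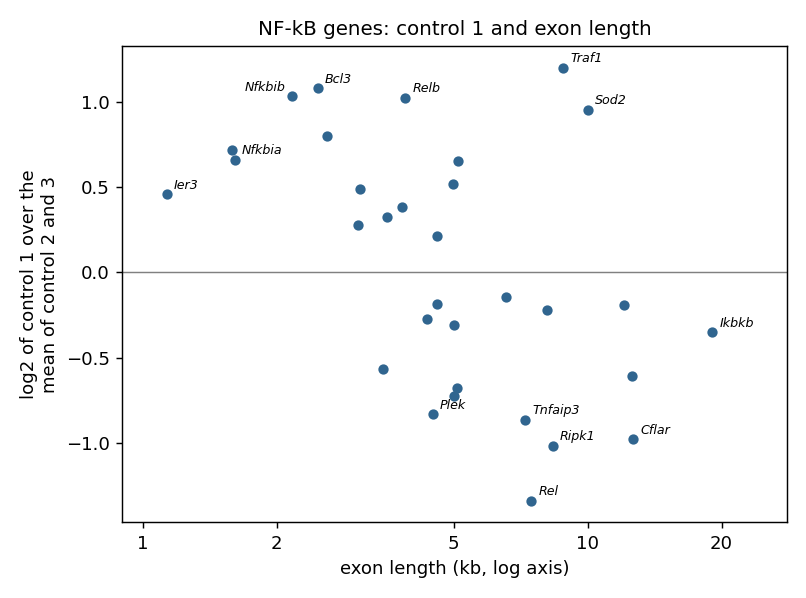
Exon length of the 32 tested members in kilobases (log axis) against the log2 ratio of control 1 to the mean of control 2 and 3, with the grey line at 0. Short genes such as Ier3 and Nfkbia lie above the line, and Rel, Ripk1 and Cflar lie near or below -1. Sod2 and Traf1, long by all annotated exons, lie high, though the longest Traf1 transcript has only 3436 bases.

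The comparison of rPTH with control asked whether these transcripts differed between libraries labelled treated and untreated. If the control mast cells met no osteoblasts, effects of co-culture and of rPTH cannot be told apart. None of the 32 tested members passed: with edgeR's quasi-likelihood test and Benjamini-Hochberg adjustment over all genes, their adjusted p ran from 0.628 to 0.976. The background was the same, with 0 of 16696 genes called (0.0%). At an unadjusted p under 0.05 there were 0 members, against 1314 genes (7.87%). DESeq2 and limma-voom also called 0 members, while over all genes DESeq2 called 5 and limma-voom 0. At an unadjusted p under 0.05 both had 0 members, against 1838 of 16696 genes in DESeq2 and 863 in limma-voom. The log2 fold changes of members (rPTH minus control) ran from -0.53 for Nfkbib to 0.44 for Nfkbiz, 17 above 0 and 15 below. Their median was 0.04, against -0.09 over all tested genes. When only protein-coding genes were fitted, it was 0.05 against 0.0009. The groups did not overlap for 3 members (9.38%), against 16.8% of all tested genes: Chuk and Cyld had every rPTH library above every control (background 8.35%), and Nfkbie had every rPTH library below (background 8.46%). The 95% interval of the log2 fold change included 0 for all 32 members. It stayed within a 2-fold change either way for 24 and reached past 2-fold for 8, so the interval alone does not exclude a change of that size for the latter.

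**Figure D3:**
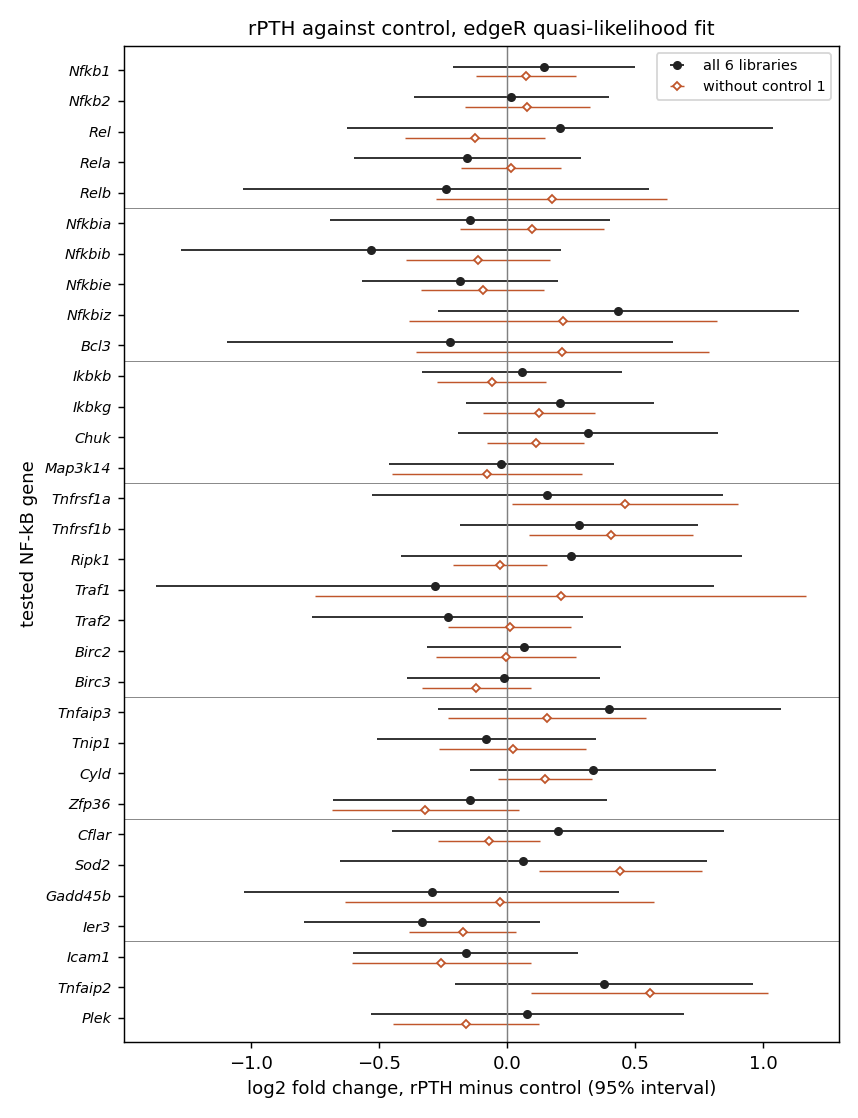
Log2 fold change, rPTH minus control, of each tested member with its 95% interval, for all 6 libraries (filled circles) and without control 1 (open diamonds), with lines between role groups. All 32 intervals of the 6-library fit cross 0; without control 1 those of Tnfrsf1a, Tnfrsf1b, Sod2 and Tnfaip2 lie above 0.

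Among the subunits, Rela, whose protein carries the activation domain of the main dimer, had 105, 78.3 and 71.0 CPM in control 1, 2 and 3 and 81.3, 73.1 and 73.8 CPM in rPTH 1, 2 and 3. The groups overlapped, and control 1 alone lay above all others. Its partner gene Nfkb1 had 96.2, 115 and 104 CPM in controls and 121, 110 and 118 CPM with rPTH. Control 2 lay above rPTH 2, so the groups overlapped, and the log2 fold change of 0.15 ± 0.15 (SE) was 0.074 without control 1 and -0.22 with the length and GC trend removed. Nfkb2, the subunit precursor of the noncanonical branch, had means of 64.3 ± 6.40 and 65.1 ± 7.25 CPM (SD, n = 3 each), with an interval from -0.36 to 0.40. Its partner Relb had 9.58 ± 4.27 and 8.12 ± 1.30 CPM, and Rel 16.3 ± 7.11 and 18.8 ± 1.596 CPM. For both, control 2 and 3 lay close together and control 1 far from them.

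Of the inhibitors, Nfkbie, which encodes IkB epsilon, had 24.0, 19.98 and 19.6 CPM in controls and 18.8, 17.8 and 19.4 CPM with rPTH. All 3 rPTH libraries lay below the controls, with control 3 just above rPTH 3. The log2 fold change was -0.18 ± 0.16 (SE), with an adjusted p of 0.673 in edgeR. It was -0.094 without control 1, -0.065 with each library's trend with exon length and GC content removed, and -0.044 with library totals as the only scaling. In the last pair of settings the groups overlapped, as they did with DESeq2's size factors or without the low-count filter. Nfkbib, which encodes IkB beta, had 49.4, 26.6 and 21.7 CPM in controls and 24.5, 22.1 and 21.004 CPM with rPTH. Control 1 lay far above the rest, and control 3 lay within the rPTH range. Its log2 fold change was the lowest of the members, at -0.53 ± 0.31 (SE, adjusted p = 0.628 in edgeR), and it was -0.11 without control 1. Nfkbia, which encodes the fast feedback inhibitor IkB alpha, had 22.2, 14.3 and 13.9 CPM in controls and 16.6, 14.3 and 14.7 CPM with rPTH, so that 5 libraries lay close together below control 1.

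The genes of the nuclear IkB proteins, which act on bound dimers at promoters, had log2 fold changes of opposite sign with all 6 libraries. Nfkbiz had 15.7, 24.9 and 27.0 CPM in controls and 40.3, 21.8 and 29.4 CPM with rPTH. The groups overlapped, with rPTH 2 below control 2 and control 3, and rPTH 1 above all. Its log2 fold change of 0.44 ± 0.30 (SE, adjusted p = 0.631 in edgeR) was 0.22 without control 1 and 0.18 without rPTH 1. Bcl3 had means of 5.33 ± 2.51 and 4.56 ± 0.864 CPM (SD, n = 3 each). Its log2 fold change of -0.22 was 0.22 without control 1 and 0.057 with the length and GC trend removed.

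In the IKK complex, the catalytic subunit gene Chuk had 46.4, 70.05 and 78.2 CPM in controls and 81.8, 80.3 and 80.1 CPM with rPTH. The rPTH libraries lay close together and above every control, with control 3 nearest. The log2 fold change was 0.32 ± 0.21 (SE, adjusted p = 0.630 in edgeR) and 0.11 without control 1, and the groups overlapped when only protein-coding genes were fitted. The other catalytic subunit, Ikbkb, had means of 66.0 ± 8.91 and 68.7 ± 5.30 CPM, and the scaffold Ikbkg 48.1 ± 4.48 and 55.6 ± 4.90 CPM (SD, n = 3 each). Map3k14, the kinase NIK of the noncanonical branch, varied little: 8.08 ± 0.480 CPM in controls against 7.97 ± 0.398 CPM under rPTH, and a log2 interval from -0.46 to 0.42.

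Of the receptors, Tnfrsf1a, the broadly expressed TNF receptor, had 65.9, 39.9 and 35.9 CPM in controls and 67.1, 47.3 and 43.6 CPM with rPTH. Control 1 and rPTH 1 were both high, and the groups overlapped through control 1. Its log2 fold change of 0.16 was 0.46 without control 1 and -0.054 without rPTH 1. Tnfrsf1b, the second TNF receptor, had 32.6, 25.6 and 24.5 CPM in controls and 39.5, 32.4 and 28.5 CPM with rPTH. Here too the overlap came through control 1, and the log2 fold change was 0.28 ± 0.20 (SE, adjusted p = 0.635 in edgeR). Tnfrsf1b was chosen for these values after they were seen.

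Among the adaptors below the receptors, the death domain kinase Ripk1 had control and rPTH means of 48.3 ± 17.0 and 57.5 ± 3.44 CPM (SD, n = 3 each). The ubiquitin ligases Birc2 and Birc3 had overlapping groups, with 20.05 ± 2.37 and 20.99 ± 0.4997 CPM for Birc2 and 31.5 ± 3.77 and 31.2 ± 1.498 CPM for Birc3. Both sit side by side on chromosome 9 and share 2.07% and 7.66% of their 50-base stretches with other genes, so a part of their counts could be split. Traf2, which links the receptors to these ligases, had 46.4 ± 13.2 and 39.5 ± 2.15 CPM. Its relative Traf1, a known NF-kB target, had only 16 to 36 counts per library and an interval from -1.37 to 0.81.

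Among the feedback regulators, Cyld, a deubiquitinase that removes signalling ubiquitin chains, had 43.1, 66.9 and 64.7 CPM in controls and 77.5, 74.6 and 68.4 CPM with rPTH. All rPTH libraries lay above the controls. The log2 fold change was 0.34 ± 0.20 (SE, adjusted p = 0.628 in edgeR), but 0.15 without control 1 and -0.025 with the length and GC trend removed, where the groups overlapped. Tnfaip3, the ubiquitin-editing enzyme that ends TNF signals, had 6.59, 13.1 and 10.9 CPM in controls and 15.1, 11.5 and 13.8 CPM with rPTH. Control 2 lay above rPTH 2, so the groups overlapped, and its log2 fold change of 0.40 ± 0.28 (SE) was 0.16 without control 1 and 0.26 with the length and GC trend removed. Tnip1, which encodes its binding partner, had 48.7, 41.0 and 36.9 CPM in controls and 46.0, 35.7 and 38.2 CPM with rPTH. These values are fully interleaved. Zfp36, which speeds the decay of cytokine mRNAs, had means of 26.7 ± 6.27 and 24.2 ± 3.50 CPM (SD, n = 3 each).

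Of the survival and stress targets, Ier3, an immediate early gene, had 337, 264 and 228 CPM in controls and 230, 214 and 214 CPM with rPTH. Only control 3 lay within the rPTH range. The log2 fold change was -0.33 ± 0.20 (SE, adjusted p = 0.628 in edgeR), -0.17 without control 1 and 0.12 with the length and GC trend removed. Sod2, the mitochondrial superoxide dismutase, had 196, 96.8 and 106 CPM in controls and 165, 124 and 128 CPM with rPTH. Its rPTH values lay between control 1 and the other controls, and its log2 fold change of 0.06 was 0.44 without control 1, -0.081 without rPTH 1 and -0.50 with the length and GC trend removed. Cflar had means of 49.2 ± 16.8 and 56.5 ± 3.3 CPM, and the stress gene Gadd45b 4.94 ± 1.63 and 4.03 ± 0.647 CPM (SD, n = 3 each).

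Of the surface and other targets, Tnfaip2, a TNF-induced gene, had 45.1, 32.4 and 30.7 CPM in controls and 60.6, 41.4 and 38.7 CPM with rPTH. Control 1 lay within the rPTH range and control 2 and 3 below it. The log2 fold change was 0.38 ± 0.25 (SE, adjusted p = 0.629 in edgeR), 0.56 without control 1 and 0.15 without rPTH 1. Icam1, the adhesion molecule that binds leukocyte integrins, had 18.2, 23.7 and 20.4 CPM in controls and 15.7, 20.3 and 19.7 CPM with rPTH, and these overlap. Plek had 84.0, 144 and 155 CPM in controls and 116, 147 and 142 CPM with rPTH, so that its lowest values were control 1 and rPTH 1. Icam1 shares 18.6% of its 50-base stretches with Gm47079, a gene on the other strand. The same measure was 18.5% for Nfkb2, 13.3% for Nfkbib and 11.9% for Cflar, so their counts are less certain too.

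**Figure D4:**
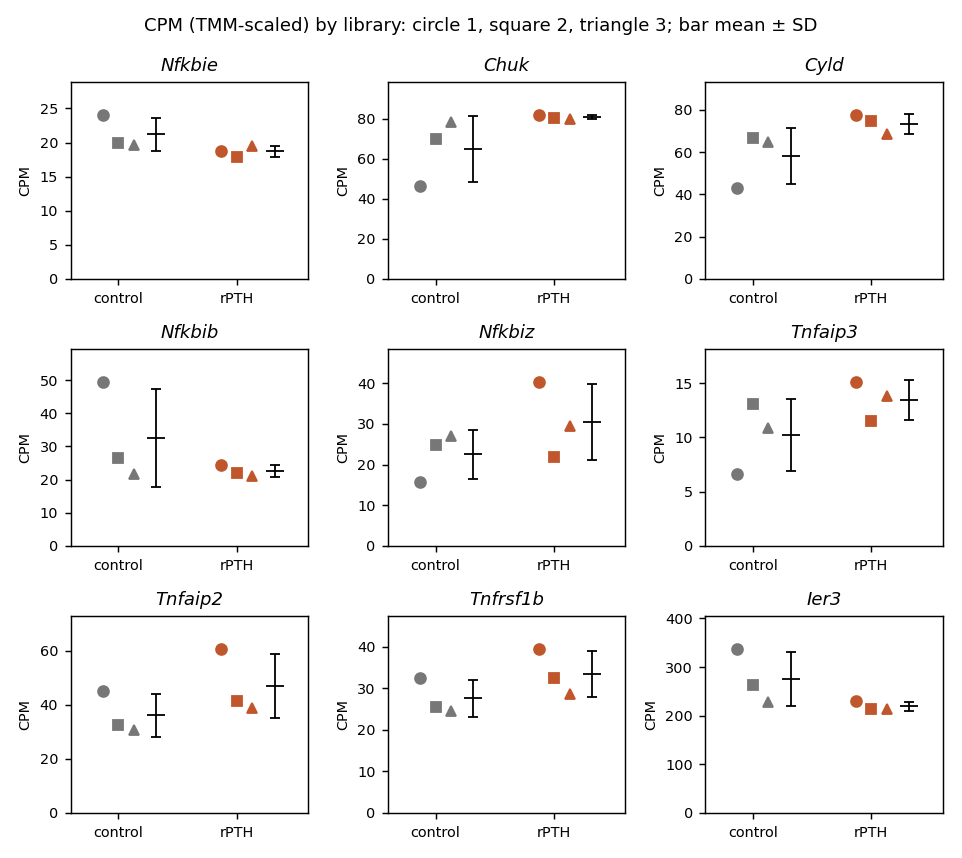
CPM in each library for 9 members, controls in grey and rPTH in orange; circles, squares and triangles are replicates 1, 2 and 3, and the bar is the mean with SD (n = 3). In Nfkbie, Chuk and Cyld the groups do not overlap, and in Tnfaip2 and Tnfrsf1b the control 1 circle reaches into the rPTH range.

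Control 1 set much of the control spread. On the log2 scale the control SD exceeded the rPTH SD for 27 of 32 members (84.4%), against 83.8% of all tested genes, and with control 2 and 3 alone for 8 members (25%), against 46.6%. Without control 1, 4 members had an unadjusted p under 0.05 in edgeR, 12.5% of those tested, against 12.4% of all tested genes, and none passed the adjustment (adjusted p at least 0.400). All 4 were higher with rPTH: Tnfaip2, Tnfrsf1a with a log2 fold change of 0.46 ± 0.18, Sod2 with 0.44 ± 0.13 and Tnfrsf1b with 0.41 ± 0.14 (SE). The groups did not overlap for 11 members in that fit (34.4%), against 31.4% of all tested genes.

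These same 4 genes were highest among the rPTH libraries in rPTH 1, the library with the highest osteoblast and stromal sum. That library had the highest value of the 3 rPTH libraries for 22 of 32 members (68.8%), against 41.4% of all tested genes. Of those 40 markers 33 were tested: 31 had a log2 fold change above 0, the median was 0.56, and none passed. Of the 33, 14 had an unadjusted p under 0.05 in edgeR, against 7.87% of all tested genes, and 18 had every rPTH library above every control, against 8.35%. By library total, the 40 markers summed to 2572, 3008 and 3009 CPM across the controls. The sum was 6007 CPM for rPTH 1, 3920 for rPTH 2 and 4117 for rPTH 3. Scaled by TMM factors, it was 3176, 2908 and 2893 CPM in control 1, 2 and 3. On that scale rPTH 1, 2 and 3 had 5832, 3742 and 3872 CPM. Without rPTH 1 but with control 1 kept, the log2 fold change was 0.15 for Tnfaip2 and 0.15 for Tnfrsf1b. It was -0.054 for Tnfrsf1a and -0.081 for Sod2 in that fit. With all 6 libraries these values were 0.38, 0.28, 0.16 and 0.06 in the same order. The part of the stromal transcripts in the values of Tnfaip2, Tnfrsf1a, Tnfrsf1b and Sod2 was not tested.

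Beyond the members, 48 other genes of the pathway were read, such as toll-like receptors, further TRAF adaptors and the linear ubiquitin complex, with 44 tested, 21 above 0 and 23 below (median log2 fold change -0.01). None passed in either direction, and 1 had an unadjusted p under 0.05 in edgeR, against 7.87% of all tested genes. Every rPTH library lay above every control for 3 of the 44 (background 8.35%) and below for 2 (background 8.46%). That gene was Tlr4, the receptor for bacterial lipopolysaccharide, with 4.46, 7.05 and 9.73 CPM in controls and 17.4, 12.9 and 10.3 CPM with rPTH. Its groups did not overlap, and the log2 fold change was 0.93 ± 0.34 (SE, adjusted p = 0.619 in edgeR). For Tlr4 it was 0.67 without control 1, 0.71 without rPTH 1 and 0.69 with the length and GC trend removed. Next by p came Traf5 with means of 12.6 ± 2.28 and 9.05 ± 0.451 CPM, Rbck1, a subunit of the linear ubiquitin ligase, with 147 ± 29.0 and 116 ± 2.06 CPM, and the adaptor Card9 with 17.7 ± 3.70 and 13.6 ± 1.33 CPM (SD, n = 3 each). Without control 1 the log2 fold change of Rbck1 was -0.18, against -0.34 with all libraries, and that of Card9 -0.21, against -0.38.

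Of 41 other target genes, 39 were tested, 16 above 0 and 23 below (median log2 fold change -0.11). None passed, and 5 had an unadjusted p under 0.05 in edgeR, against 7.87% of all tested genes. The groups did not overlap for 6 of the 39 with rPTH higher (background 8.35%) and for 1 with rPTH lower (background 8.46%). The genes below were picked for their small p. The hyaluronan receptor Cd44 had 84.6, 83.5 and 84.6 CPM in controls and 165, 118 and 102 CPM with rPTH, a log2 fold change of 0.61 ± 0.21 (SE, adjusted p = 0.619 in edgeR). Ccnd1, a D-type cyclin, had 52.2, 57.1 and 56.01 CPM and then 101, 72.6 and 69.0 CPM. Nos2, the inducible nitric oxide synthase, had means of 9.84 ± 1.82 and 16.2 ± 4.08 CPM, and the prostaglandin synthase Ptgs2 62.3 ± 14.8 and 109 ± 33.2 CPM (SD, n = 3 each). The adhesion molecule Vcam1, named after its values were seen as the last of the 5, had 15.4 ± 2.69 and 23.0 ± 5.22 CPM. Without rPTH 1 the log2 fold change was 0.39 for Cd44, against 0.61 with all libraries, and 0.38 for Vcam1, against 0.58. It was 0.36 for Ccnd1 (0.55 with all libraries), 0.50 for Nos2 (0.72) and 0.54 for Ptgs2 (0.80). With the length and GC trend removed it was 0.063 for Vcam1, 0.37 for Cd44, 0.56 for Ccnd1, 0.76 for Nos2 and 0.60 for Ptgs2. In all 5 the rPTH libraries lay above the controls and rPTH 1 was highest, as it was for the stromal sum, whose part in these values was not tested.

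In the authors' deposited table, all 32 members had an adjusted p and 0 were under 0.05, against 11 of 15559 genes (0.0707%). The lowest adjusted p of a member in the authors' deposited table was 0.548, for Tnfaip2. The authors' deposited table put 20 of the 32 members above 0, with log2 fold changes from -0.37 (Nfkbib) to 0.43 (Nfkbiz), and 29 had the same sign as in the edgeR fit.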

How the data were processed

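Whole-number gene counts per library were deposited by the authors without scaling. The submitters' processing notes name, without saying what each did, R 3.3.0, DESeq2 1.12.4, featureCounts, Subread 1.5.0p3, STAR 2.5.2b and Trimmomatic 0.36, and the builds GRCm38.p5 and mm9. Annotation and strand setting are not given in the sources used here. It is therefore not known whether reads of overlapping genes on opposite strands were kept apart. A second table deposited by the authors holds a scaled signal, the counts over a size factor of 0.774 to 1.24 per library. The authors' deposited comparison holds log2 fold changes, a Wald score and p-values. The deposited signal and score were read only to learn their unit.

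From the counts, edgeR 4.0.16 in R 4.3.3 was run over all genes (filterByExpr with a minimum count of 10, TMM factors, robust quasi-likelihood test, Benjamini-Hochberg adjustment, threshold 0.05), without covariates. Standard errors and 95% intervals come from that fit. Alternatives used DESeq2 1.42.0, limma 3.58.1, other scalings and filters, left-out libraries, a replicate block, and a spline trend of each library with exon length and GC content (5 degrees of freedom each). The fits were tested on simulated data, with changes set only in genes above a minimum mean level. Genes varied independently there, with the spread fitted at their level and no trend of control 1 with length or GC. There edgeR recovered 31.2% of 109 2-fold changes, DESeq2 44.0% and limma-voom 26.6%, and each recovered 98.9% of 91 4-fold changes. Genes called without a set change numbered 9, 23 and 7. A 2-fold change could thus go uncalled in these fits. The shares recovered hold for the simulated setting and are not detection rates for the members. Gene models are GENCODE M21 on GRCm38; exon length is the union of annotated exons. Promoters and coordinates of printed promoter stretches are RefSeq, GRCm38.p6. Fam105b was read under its symbol Otulin. No pair of libraries was a duplicate (chi-square per degree of freedom at least 13.3).

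The members, lists and alternatives were chosen with earlier results of these data known. Values in every library were given for members that passed, whose groups did not overlap, that led a role group per kilobase, or that were among the 5 largest fold changes; of the other lists, up to 4 genes of smallest p were named. Nfkb1, Nfkbia, Tnfrsf1b, Sod2, Icam1 and the examples for control 1 (Rel, Relb, Ripk1, Cflar, Bcl3) were added after their values were seen. Deviations from the group means correlated at -0.13, -0.36 and 0.14 for equal replicate numbers, and from -0.26 to 0.37 for unequal ones. With 3 libraries per group, these values cannot decide whether the numbers pair the libraries.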

Additional observations from a re-analysis of the deposited data

How the results depend on the processing

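No member passed under any of the 17 alternatives. Over all genes, DESeq2 called 5 and the fit with control 2 as the only control called 2 and every other alternative 0. With 1 control, the spread comes from the rPTH libraries alone and the lone control is assumed to vary like them, so its calls carry little weight. The replicate block called 0 genes and 0 members, with 525 genes at an unadjusted p under 0.05 and a member median of 0.04; the labels do not say that the numbers mark a shared culture or day. The member median of 0.04 was 0.16 with library totals only and 0.16 without the low-count filter (21 members above 0 in each), and ran from -0.04 (without rPTH 1) to 0.11 (without control 3) when single libraries were left out. Library totals shifted the median of all genes by 0.13. Relative to the median of all genes in the same setting, members stood at 0.13 with TMM and 0.12 with library totals. Without the low-count filter this was 0.25, with 38206 genes behind the median of all genes instead of 16696. Every member is protein-coding, and over protein-coding genes only it was 0.05. It was 0.02 with the length and GC trend removed and -0.0014 with that and a replicate block. The count of members whose groups did not overlap was 5 without the low-count filter (15.6%, against 12.2% of all genes). With library totals only it was 4 (12.5% against 19.1%). With at least 1 CPM in 3 libraries it was 4 of 31 tested (12.9% against 17.8%). Without single libraries the count ran from 4 to 11. It was 4 without rPTH 1 (12.5% against 19.99%) and 4 without rPTH 3 (12.5% against 23.3%). It was 5 without control 2 (15.6% against 28.7%) and 6 without rPTH 2 (18.8% against 27.8%). The highest counts were 9 without control 3 (28.1% against 34.3%) and 11 without control 1 (34.4% against 31.4%). With control 2 as the only control it was 17 (53.1% against 61.1%). Fewer libraries make separation easier.

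The sign of the log2 fold change was the same in every alternative for 8 members, 5 above 0 (Nfkbiz, Chuk, Tnfrsf1b, Tnfaip3, Tnfaip2) and 3 below (Nfkbib, Nfkbie, Icam1), and changed in at least 1 for the other 24. Among members named by the rule, removal of the length and GC trend, alone and with a replicate block, turned Rela to 0.00 (0.0048 and 0.0052), Tnip1 to 0.039 and 0.036, Cyld to -0.025 and -0.021, Ier3 to 0.12 and 0.14, and Plek to -0.055 and -0.046. Tnip1 was 0.059 with library totals and 0.054 without the low-count filter. Without single libraries Rela ran from -0.21 to 0.015, Tnip1 from -0.19 to 0.023, Plek from -0.16 to 0.31 and Tnfrsf1a from -0.054 to 0.46; with control 2 as the only control Plek was -0.091. The cause of these changes was not tested. Depth was lowest for Traf1, with 16 to 36 counts per library.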
